A study of Rattus norvegicus with 12 samples.

Results

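The response of cultured rat astrocytes to epidermal growth factor (EGF) was compared between 4 and 12 h of treatment, gene by gene. The quantity described is the change of the EGF effect: the log2 difference between EGF and control at 12 h minus the same difference at 4 h. The groups were read from the sample titles, and all 12 arrays of the study entered, 3 in each of 4 groups. These were astrocytes given EGF for 4 h, untreated controls of that experiment, astrocytes given EGF for 12 h, and untreated controls of that experiment. All groups were primary cultures from the optic nerve head of Rattus norvegicus. The series describes treated and control dishes as sister cultures, and gives no strain, age, sex or EGF dose in the sources used here. Nothing states that the replicates came from separate animals or separate cultures, so p-values measure the spread between these samples, which may be technical. Of 31099 probe sets on the array, 18609 were bright enough to test, and they represented 10253 named genes.

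EGF binds a receptor tyrosine kinase, EGFR, and starts the Ras to ERK and PI3 kinase to Akt cascades. ERK raises immediate early transcription factors within minutes, then inhibitors that damp the cascade, while Akt keeps FoxO factors out of the nucleus and so lowers their target genes. Later waves include genes of ribosome production, metabolism and the cell cycle. In the optic nerve head, astrocytes wrap the axons of retinal ganglion cells and are coupled by gap junctions, and EGFR activation is studied there as a trigger of the reactive state seen in glaucoma.

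Each response was placed in a class by 3 tests of limma, all with p-values adjusted by the Benjamini-Hochberg method and a threshold of 0.05: the EGF effect at 4 h, the EGF effect at 12 h, and the change. All classes but sustained needed a called change. Transient genes had an effect called at 4 h and not at 12 h, and late genes the reverse. Attenuated genes kept the direction of the 4 h effect with a smaller size, and growing genes kept it with a larger size. Reversed genes were called at both times in opposite directions. Sustained genes were called at both times in one direction with no change called. Values are in log2 units of signal plus an offset of 24.4 unless given as signals, and "control shift" is control at 12 h minus control at 4 h. The change equals the shift between the EGF groups minus the control shift, so a gene can change through either.

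The labelled cell type was checked against marker genes. Gja1, the main astrocyte connexin, gave group mean signals between 62981 and 71814, and the intermediate filament gene Vim between 62763 and 91773. Gfap, the classical astrocyte filament, was dim, with group means of 130.1 to 215.3, and was not tested, like Slc1a2, Aqp4, Aldh1l1 and Fabp7. Of the tested astrocyte markers, S100b (184.2 to 391.2) and Slc1a3 (158.0 to 697.6) were dim, and Glul lay between 2980 and 7210. All 6 fibroblast markers were tested, and the collagens Col1a1 (33587 to 72051) and Col1a2 (40561 to 75359) were bright. The Schwann cell marker Pmp22 lay between 6557 and 18132 and the oligodendrocyte marker Cnp between 1832 and 7115. None of 6 neuronal markers was bright enough to test. These markers do not settle how pure the cultures were. In such bulk RNA, fewer cells of a type and less RNA per cell cannot be told apart.

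The arrays fell into sets that follow time. The actin 3' to 5' signal ratio, a sign of RNA or target length, was 1.2 to 1.61 on the 4 h arrays and 11.1 to 21.7 on 5 of the 12 h arrays. On EGF replicate 3 of 12 h the ratio was 1.24, and the mean correlation of that array with the EGF arrays of 4 h, 0.894, lay close to that with its own group, 0.905. The other 2 EGF arrays of 12 h correlated with their group at 0.932 and 0.938 and with the EGF arrays of 4 h at 0.818 and 0.833. The replicate 3 pair at 4 h differed from all other arrays in its hybridisation controls. In the shifts between control groups and between EGF groups, time and array set cannot be told apart. Each EGF effect was measured against controls of its own experiment, but the change compares effects measured on unlike arrays. Time and array set cannot be told apart in the change either. At 12 h, EGF replicate 3 was also unlike all of its own controls in the actin ratio.

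The EGF effect differed between 4 and 12 h for 2153 of 18609 probe sets (11.6%), and for 1436 of 10253 genes (14.0%). The shift between the EGF groups was called for 43.0% of genes. The EGF effect was higher at 12 h for 672 genes (6.55%) and lower for 764 (7.45%). EGF effects themselves were called for 3329 genes at 4 h (32.5%; 12.8% higher and 19.6% lower) and 4186 at 12 h (40.8%; 16.6% higher and 24.3% lower). Over all genes the median effect was -0.17 at 4 h and -0.09 at 12 h, and the median change was 0.04. The effects at 4 and 12 h correlated at r = 0.61 across genes, which are not independent replicates. The median standard error was 0.33 for the change and 0.23 for an effect. In simulated data a true change of 1 was recovered in 22% of probe sets and one of 2 in 66% (16% and 58% for changes of the same sizes downward), so a gene without a call may still have changed. Only 200 of 18609 probe sets were changed in that simulation, a smaller share than the 11.6% called here. The adjustment is stricter with fewer changes, so recovery in the real data may differ from these shares. Of the tested genes, 68 had a group mean at or above the filter in 1 group alone, and 20 of these were called. Among list members called, they were Aldoc and Gjb6 (12 h controls), Tgm1 (EGF at 4 h) and Bdnf (EGF at 12 h). Further genes named for their class were Plcd4, Calb1, Cd68 and Car2, all through EGF at 12 h. Rgs16 (EGF at 4 h), Fam84b (4 h controls) and Onecut2 (12 h controls) were others. All of these genes passed the filter through the group in which they are high. Their entry and their change were fixed together, and their adjusted p is to be read with that limit.

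Sustained responses formed the largest class, with 555 genes higher (5.41%) and 1063 lower (10.4%) at both times. For 1129 of these genes the 95% interval of the change lay within 1 log2 unit of 0. Late responses came next, with 336 rises (3.28%) and 272 falls (2.65%). Transient responses numbered 192 rises (1.87%) and 157 falls (1.53%), and growing responses 95 rises (0.927%) and 142 falls (1.38%). Attenuated responses were 88 rises (0.858%) and 27 falls (0.263%). Reversal was the rarest, with 59 genes that rose at 4 h and fell at 12 h (0.575%) and 41 that fell and then rose (0.4%). A further 16 genes had a change called higher (0.156%) and 11 one called lower (0.107%) with no effect called at either time.

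**Figure D1:**
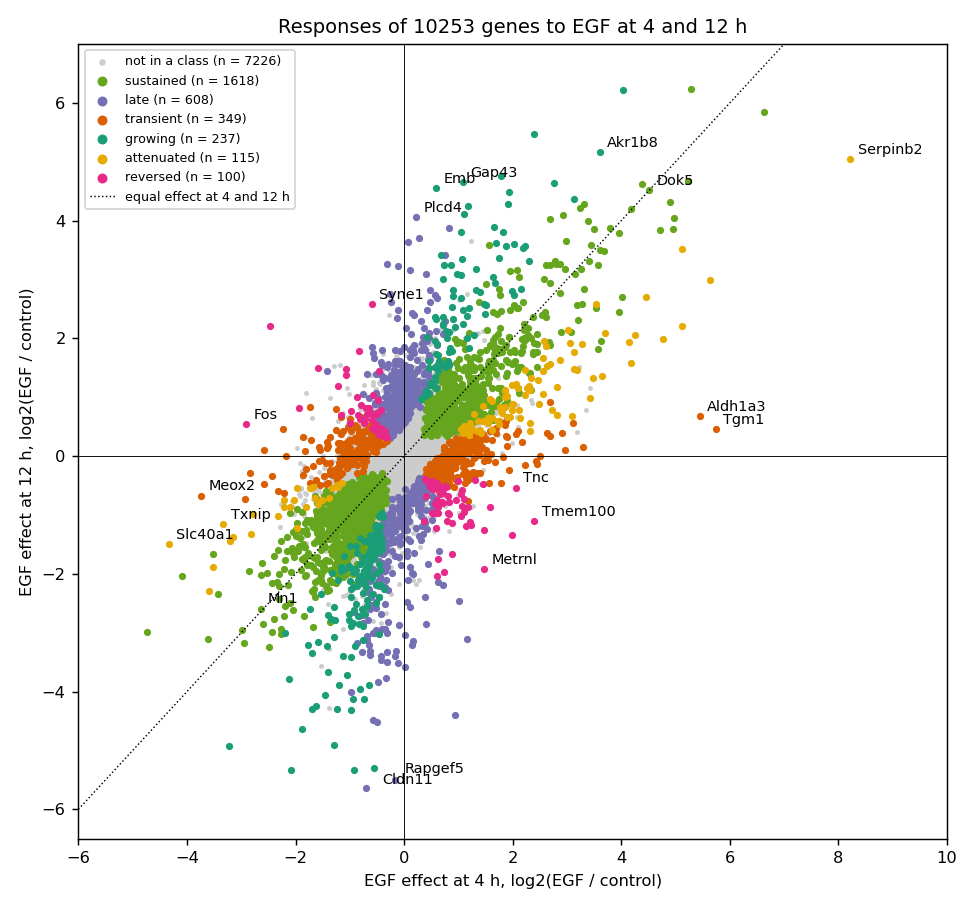
EGF effect at 4 h (horizontal axis) and at 12 h (vertical axis) of 10253 genes, each as log2 of EGF over control, coloured by response class; the dotted line marks equal effects. Sustained genes lie along the line, transient genes along the horizontal axis, late genes along the vertical axis and the 100 reversed genes in the quadrants of opposite sign.

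The controls of the experiments also differed, for 4623 genes (45.1%; 28.5% higher and 16.6% lower at 12 h), and this difference enters every change. Of the 1436 genes whose effect changed, 837 (58.3%) also had a called control shift, and in 569 (39.6%) the control shift was larger than the shift between the EGF groups. In 589 genes the shift of the EGF groups alone was called, in 421 the control shift alone, in 416 both, and in 10 neither. The direction of the control shift varied with the class. Among late rises 169 of 336 had controls that were lower at 12 h and 18 had controls that were higher, while among late falls 158 of 272 had higher and 27 lower controls. Transient rises had higher controls at 12 h in 98 of 192 genes and lower ones in 11, and for reversed rises these counts were 40 and 2 of 59. A high control at 12 h lowers the change by construction, so these counts are descriptions of how each class is made up.

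**Figure D2:**
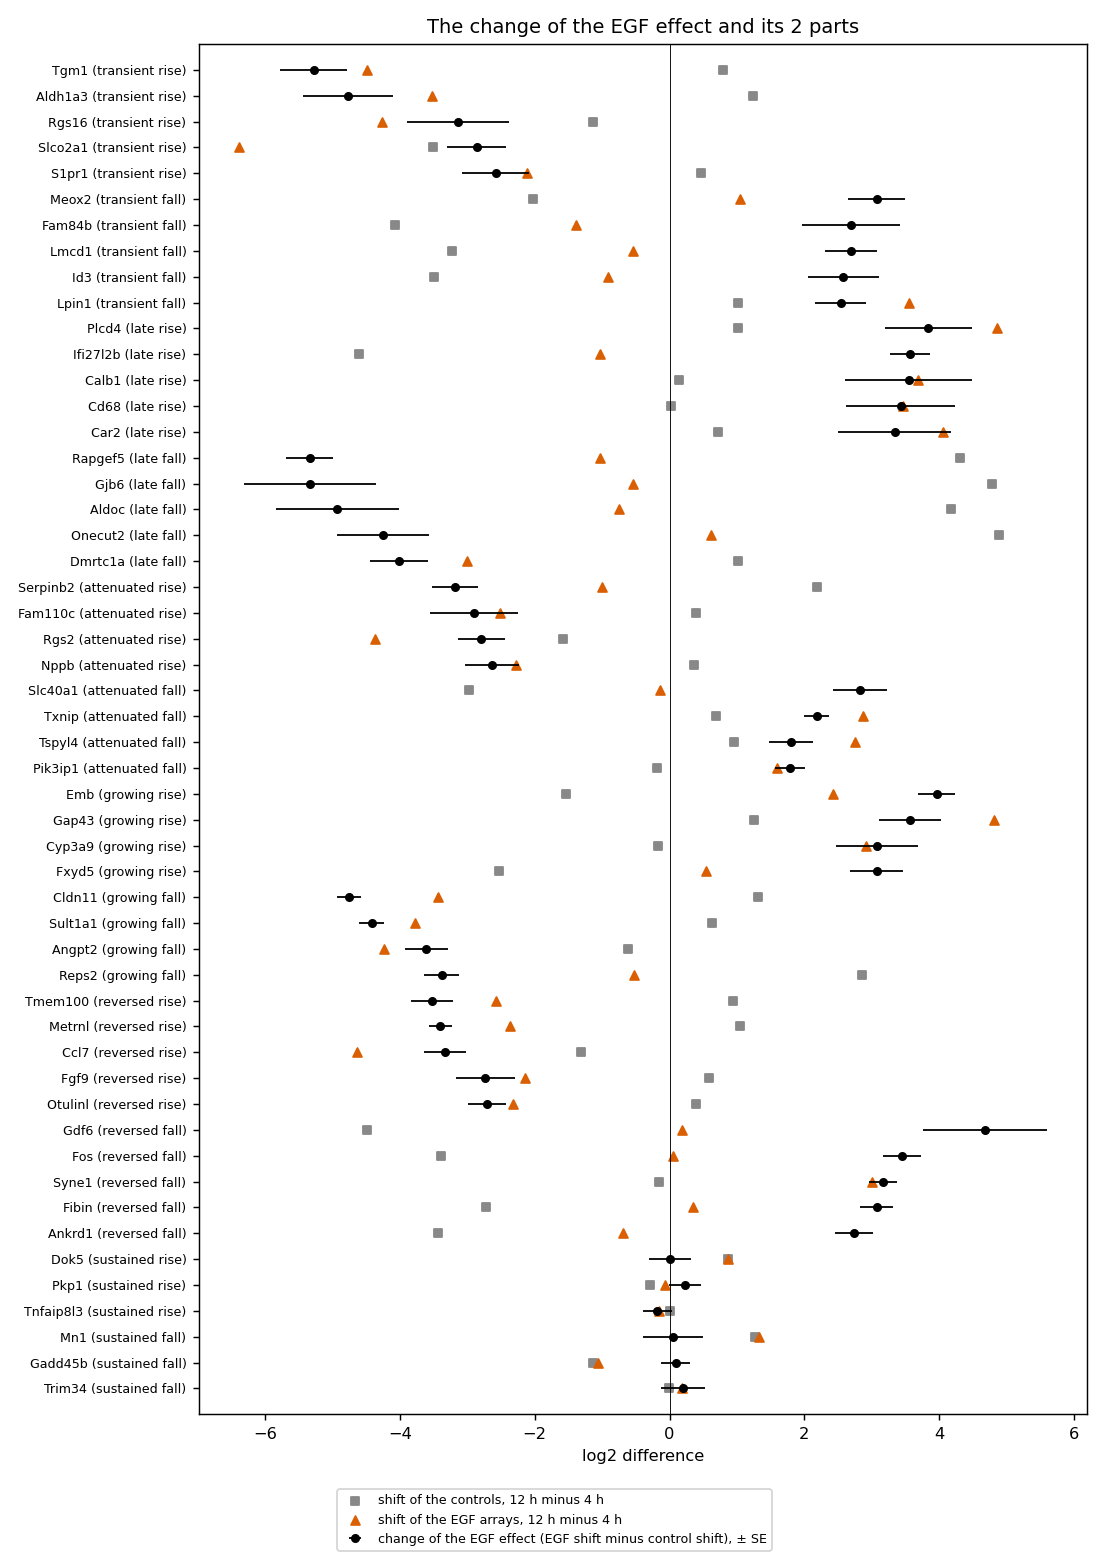
For each gene named for its class (vertical axis), the shift of the controls from 4 to 12 h (squares), the shift of the EGF arrays (triangles) and their difference, the change of the EGF effect (circles, with bars of 1 standard error), in log2 units. Fos and Id3 changed mainly through their controls (shifts of -3.39 for Fos and -3.49 for Id3), while Tgm1, Txnip and Syne1 changed mainly through the EGF arrays.

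The calls were repeated on other sets of arrays. All 2153 probe sets kept the sign of their change with the array set as a block, and 99.9% were called again. Restricted to 1 array set at each time, which at 12 h compares EGF and control arrays of like 3' to 5' ratio, 94.7% were called again with the same sign. Without EGF replicate 3 at 12 h, the array that stood apart, 97.9% were called again and the number of calls rose to 2955. The estimated change of each gene is the same here as with the array set as a block. The fit with 1 array set at each time leaves that array out as well. These fits are therefore not separate checks, and all reuse arrays on which the calls were made. Leaving out any other array gave between 1419 and 2896 calls. Membership of a class was less steady in some fits. With median centring 1931 of the 2153 changes were called again. In that fit 244 of 337 growing and 101 of 153 reversed probe sets kept their class. With the array set as a block 670 of 936 late probe sets kept theirs, and all 337 growing ones. A further, not called probe set with the same sign of change existed for Slco2a1, Lpin1, Id2, Msn, Wdr43, Ifit2, Nusap1 and Etv1.

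**Figure D3:**
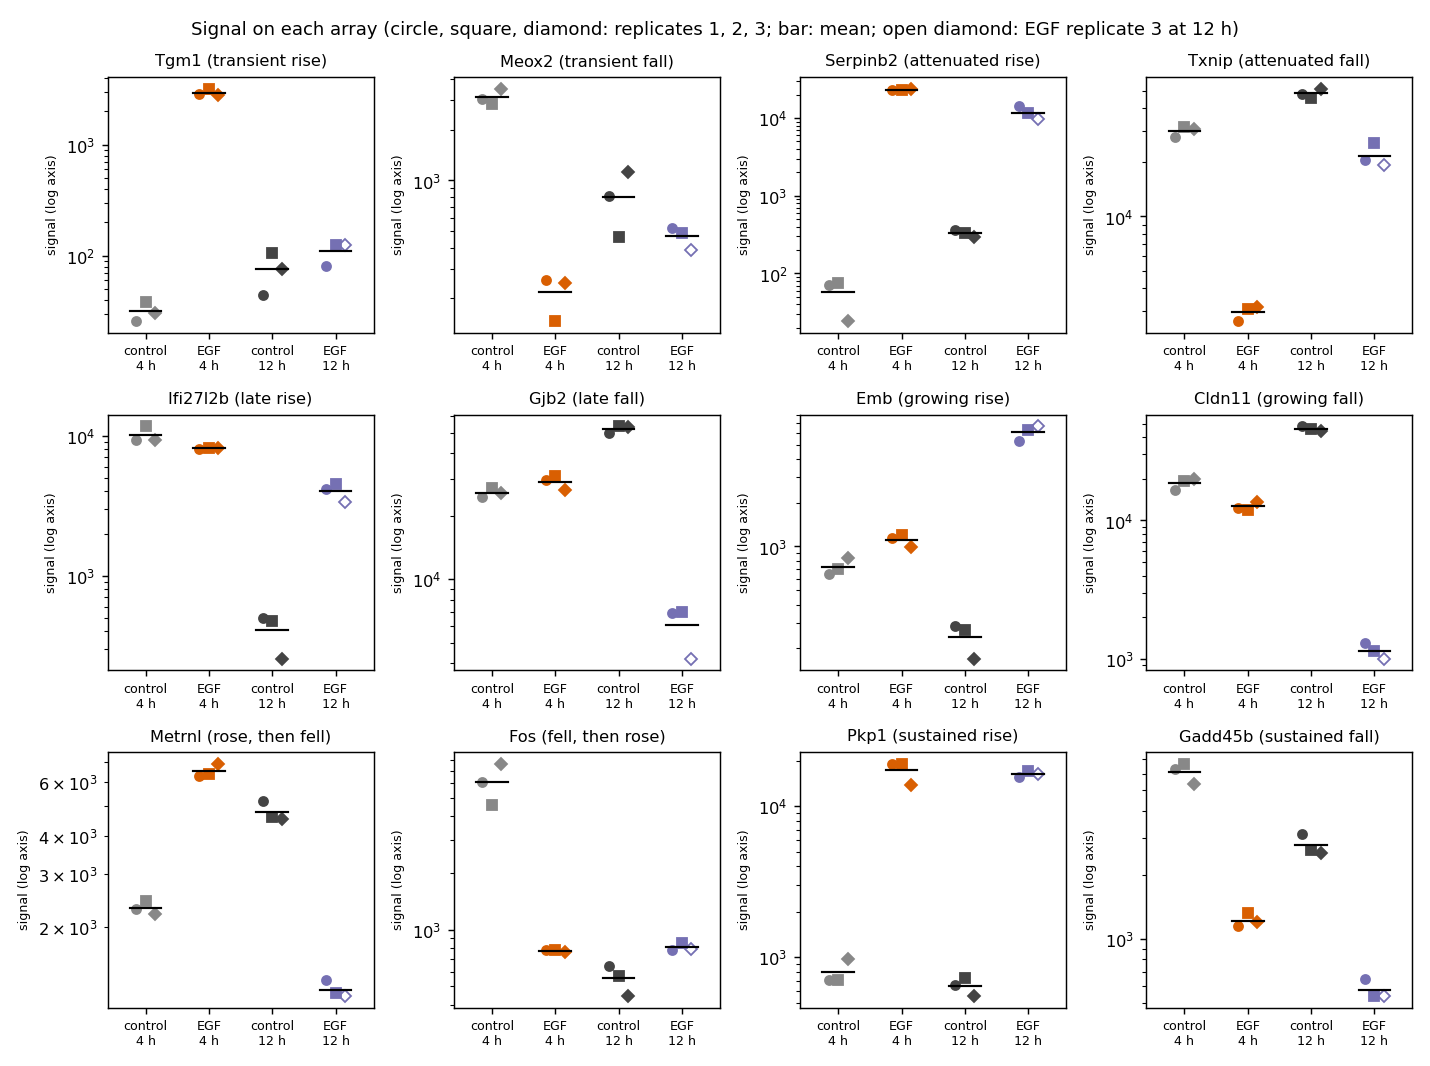
Signal on each of the 12 arrays (vertical log axis) for a rise and a fall of each class, with 3 arrays per group and a bar at the group mean; the open diamond is EGF replicate 3 at 12 h. Tgm1 reached 2789 to 3203 with EGF at 4 h and 81.1 to 125.1 at 12 h, while Emb stayed at 990 to 1192 at 4 h and reached 5300 to 6673 at 12 h.

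Transient rises were led by Tgm1, a transglutaminase that cross-links proteins and is listed among reactive astrocyte genes. Its signals at 4 h were 25.9, 38.5 and 30.3 on the control arrays and 2896, 3203 and 2789 on the EGF arrays. At 12 h they were 44.5, 106 and 76.9 on the control arrays and 81.1, 124 and 125 on the EGF arrays. The groups stood apart 53.5-fold on the log2 scale with the offset at 4 h and overlapped at 12 h. The effects were 5.74 at 4 h and 0.46 at 12 h, a change of -5.28 ± 0.50 (SE, adjusted p = 3.5e-05), with a control shift of 0.80. Aldh1a3, an enzyme that makes retinoic acid, went the same way, with effects of 5.45 at 4 h and 0.68 at 12 h (change -4.77 ± 0.67, adjusted p = 0.000595, control shift 1.24). So did Slco2a1, a prostaglandin transporter, at 4 h from 827, 634 and 722 on the controls to 5699, 6448 and 5442 with EGF. Its signals at 12 h were near the bottom of the scale in both groups, 28.9, 33.7 and 66.3 on the control arrays and 51.5, 23.0 and 74.0 on the EGF arrays, and the effects were 2.97 at 4 h and 0.11 at 12 h (change -2.86 ± 0.44, adjusted p = 0.00122, control shift -3.51). S1pr1, a receptor for sphingosine 1-phosphate, had effects of 2.45 at 4 h and -0.13 at 12 h (change -2.58 ± 0.50, adjusted p = 0.00517, control shift 0.47). Rgs16, which shortens signalling through G proteins, had effects of 3.29 at 4 h and 0.15 at 12 h (change -3.14 ± 0.76, adjusted p = 0.0177, control shift -1.13). Without EGF replicate 2 at 4 h its adjusted p was 0.058, and with an offset of 1 it was 0.103.

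Transient falls included regulators of transcription that EGF lowered at 4 h. Meox2, a homeobox factor, gave 3059.7, 2853 and 3501 on the control arrays and 258, 147 and 247 on the EGF arrays at 4 h. At 12 h it gave 806, 459.8 and 1124 on the control arrays and 519, 489.7 and 387 on the EGF arrays. The controls had come down and the EGF arrays had gone up, so the groups overlapped. The effects were -3.74 at 4 h and -0.67 at 12 h (change 3.07 ± 0.42, adjusted p = 0.000506, control shift -2.03). Id3, an inhibitor of helix-loop-helix factors and a target of BMP signalling, had effects of -1.74 at 4 h and 0.84 at 12 h (change 2.58 ± 0.52, adjusted p = 0.00663, control shift -3.49), and its EGF arrays at 12 h spread from 3080.0 to 11466 with replicate 3 the highest. Lmcd1, a LIM domain protein, had effects of -2.58 at 4 h and 0.10 at 12 h (change 2.69 ± 0.39, adjusted p = 0.000805, control shift -3.22). Lpin1, a phosphatidate phosphatase of lipid synthesis, had effects of -2.84 at 4 h and -0.29 at 12 h (change 2.54 ± 0.38, adjusted p = 0.000873, control shift 1.01), and here the EGF arrays recovered while the controls rose. Fam84b had effects of -2.23 at 4 h and 0.46 at 12 h (change 2.69 ± 0.73, adjusted p = 0.0297, control shift -4.07), and its adjusted p rose to 0.0838 when 1 array was left out and to 0.106 with an offset of 1.

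Attenuated rises stayed above control at 12 h. Serpinb2, an inhibitor of plasminogen activators, had the largest 4 h effect among the genes named here. It gave 71.7, 75.9 and 24.5 on the control arrays and 22705, 23008 and 23795 on the EGF arrays at 4 h and 362, 331 and 294 on the control arrays and 14066, 11492 and 9572 on the EGF arrays at 12 h. The EGF arrays were lower and the controls higher at 12 h, and the groups stayed apart. The effects were 8.22 at 4 h and 5.04 at 12 h (change -3.18 ± 0.34, adjusted p = 8.81e-05, control shift 2.18). Rgs2, a relative of Rgs16, reached 17694, 19453 and 21200.1 with EGF at 4 h and 905, 1013 and 843 at 12 h, and its effects were 4.77 at 4 h and 1.99 at 12 h (change -2.79 ± 0.35, adjusted p = 0.000289, control shift -1.58). Nppb encodes brain natriuretic peptide and had effects of 5.63 at 4 h and 2.99 at 12 h (change -2.64 ± 0.40, adjusted p = 0.00103, control shift 0.37). Fam110c had effects of 5.11 at 4 h and 2.21 at 12 h (change -2.90 ± 0.65, adjusted p = 0.0122, control shift 0.39).

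Attenuated falls were fewer and included brakes on growth. Txnip, which inhibits thioredoxin and glucose uptake, gave 27602, 31553 and 30607 on the control arrays and 2626, 3074 and 3150.3 on the EGF arrays at 4 h and 48045, 45591 and 51211 on the control arrays and 20601, 25529 and 19219 on the EGF arrays at 12 h. EGF arrays lay below the controls at both times without overlap, by 10.1-fold and then by 2.23-fold. The effects were -3.33 at 4 h and -1.16 at 12 h (change 2.18 ± 0.18, adjusted p = 1.56e-05, control shift 0.69). Pik3ip1, an inhibitor of PI3 kinase, gave 8877, 8869.6 and 7335 on the control arrays and 847, 848 and 1044 on the EGF arrays at 4 h and 7492, 7530.1 and 6963 on the control arrays and 2326, 2889 and 3306 on the EGF arrays at 12 h, with effects of -3.16 at 4 h and -1.37 at 12 h (change 1.79 ± 0.22, adjusted p = 0.000203, control shift -0.18). Its controls hardly moved and the EGF arrays came part of the way back. Slc40a1, the iron exporter ferroportin, had effects of -4.33 at 4 h and -1.50 at 12 h (change 2.83 ± 0.40, adjusted p = 0.000632, control shift -2.97), and there the controls fell while the EGF arrays stayed low. Other probe sets of Slc40a1 gave changes of 1.47 and 0.21, the second not called, so the size differs between its probe sets. Tspyl4 had effects of -2.78 at 4 h and -0.98 at 12 h (change 1.80 ± 0.33, adjusted p = 0.0041, control shift 0.95).

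Promoter windows were searched for 4 motifs, of FoxO, AP-1, Myc with Max, and ETS factors, which are regulated downstream of EGFR. Windows ran from 250 bases before to 50 after each start in the RefSeq table of build GRCr8, and 8590 of 10253 tested genes had one. The FoxO site TGTTTAC, searched on both strands, was in 4 of 24 windows of attenuated falls (16.7%), against 2.32% of tested genes and 3.76% of all 27457 windows. The AP-1 site TGANTCA, searched likewise, was in 9 of 71 windows of attenuated rises (12.7%), against 4.83% of tested genes and 7.33% of all windows. Reversed rises came near that share, with the AP-1 site in 5 of 49 windows (10.2%). The E-box CACGTG, bound by Myc with Max, was in 6 of 24 windows of attenuated falls and 14 of 71 of attenuated rises (19.7%), against 9.84% of tested genes. The ETS core CCGGAAG was in 3 of 24 (12.5%) and 8 of 71 (11.3%), against 18.9% of tested genes. These are descriptions of 300 bases each, and a match is not a bound site. None of the windows shown holds both the FoxO and the AP-1 site.

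The 4 windows of attenuated falls that hold the FoxO site are shown 5′ to 3′ with that site in capitals, because this class had the highest share of it among the classes. The E-box had a higher share in the same class, and windows were not chosen for it. Of the windows shown, that of Mbd5 also holds the E-box CACGTG, left in lower case. The windows shown belong to Ccdc28a (chr1:14692440-14692739, minus strand), Hbp1 (chr6:54283210-54283509, minus strand), Mbd5 (chr3:53997848-53998147, plus strand) and Pik3ip1 (chr14:82428065-82428364, plus strand). Ccdc28a, Hbp1 and Mbd5 were singled out after the search.
Ccdc28a: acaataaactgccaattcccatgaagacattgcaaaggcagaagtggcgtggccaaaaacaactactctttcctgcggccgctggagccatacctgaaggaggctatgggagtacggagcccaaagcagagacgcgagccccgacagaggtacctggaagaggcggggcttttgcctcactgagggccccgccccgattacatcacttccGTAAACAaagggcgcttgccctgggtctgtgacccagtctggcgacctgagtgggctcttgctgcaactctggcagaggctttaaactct
Hbp1: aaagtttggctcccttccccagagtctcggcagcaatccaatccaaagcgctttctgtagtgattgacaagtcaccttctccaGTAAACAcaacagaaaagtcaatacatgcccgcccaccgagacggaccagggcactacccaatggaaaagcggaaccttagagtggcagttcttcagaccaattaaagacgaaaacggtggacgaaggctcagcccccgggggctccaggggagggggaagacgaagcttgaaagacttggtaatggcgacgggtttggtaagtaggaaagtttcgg
Mbd5: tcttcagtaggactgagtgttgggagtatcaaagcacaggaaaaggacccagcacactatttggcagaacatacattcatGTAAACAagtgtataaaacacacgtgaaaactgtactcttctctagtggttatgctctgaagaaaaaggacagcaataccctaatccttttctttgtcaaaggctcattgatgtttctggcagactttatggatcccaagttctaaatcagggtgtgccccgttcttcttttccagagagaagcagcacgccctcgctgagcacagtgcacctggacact
Pik3ip1: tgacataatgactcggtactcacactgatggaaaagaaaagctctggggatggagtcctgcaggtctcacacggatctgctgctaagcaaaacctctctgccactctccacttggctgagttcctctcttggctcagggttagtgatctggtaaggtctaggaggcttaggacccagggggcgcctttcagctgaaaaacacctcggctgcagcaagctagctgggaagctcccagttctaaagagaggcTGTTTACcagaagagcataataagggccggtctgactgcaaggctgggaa
In Ccdc28a, Hbp1 and Mbd5 the capitals are the site on the opposite strand. The site starts at position -40 from the start of Ccdc28a, at -167 in Hbp1, at -170 in Mbd5 and at 1 in Pik3ip1. Hbp1, a repressor of cell cycle genes, had effects of -1.68 at 4 h and -0.52 at 12 h (change 1.15 ± 0.27, adjusted p = 0.015, control shift -0.42). Ccdc28a had effects of -2.21 at 4 h and -0.87 at 12 h (change 1.34 ± 0.35, adjusted p = 0.0241, control shift 0.54), and Mbd5, a methyl-CpG binding domain protein, of -2.21 at 4 h and -0.74 at 12 h (change 1.47 ± 0.39, adjusted p = 0.0261, control shift 0.25).

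The AP-1 site is not particular to attenuated rises. The windows of Cd68, Cyp3a9 and Ccl7, named for other classes, hold it too and are not shown. Among the attenuated rises named for their change, Serpinb2 (chr13:24055771-24056070, plus strand) and Fam110c (chr6:53365763-53366062, plus strand) hold the AP-1 site, in capitals, at positions -189 and -144.
Serpinb2: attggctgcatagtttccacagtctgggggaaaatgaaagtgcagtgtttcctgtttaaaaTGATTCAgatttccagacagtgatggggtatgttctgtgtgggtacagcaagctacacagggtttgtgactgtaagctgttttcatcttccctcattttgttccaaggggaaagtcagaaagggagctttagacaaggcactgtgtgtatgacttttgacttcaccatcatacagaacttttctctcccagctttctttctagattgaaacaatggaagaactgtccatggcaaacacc
Fam110c: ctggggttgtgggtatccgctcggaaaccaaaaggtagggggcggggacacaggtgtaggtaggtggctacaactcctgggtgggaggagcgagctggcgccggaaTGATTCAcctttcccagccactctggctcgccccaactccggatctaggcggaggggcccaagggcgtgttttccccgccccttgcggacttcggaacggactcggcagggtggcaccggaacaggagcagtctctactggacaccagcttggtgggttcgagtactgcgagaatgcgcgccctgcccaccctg

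Late rises had no called effect at 4 h. Plcd4, a phospholipase C, gave 24.1, 43.8 and 22.1 on the control arrays and 22, 54.6 and 41.6 on the EGF arrays at 4 h and 129, 105 and 38.4 on the control arrays and 1499, 1889 and 1961 on the EGF arrays at 12 h. The 4 h groups overlapped near the bottom of the scale, and every EGF array of 12 h was at 1499 or above. The effects were 0.22 at 4 h and 4.06 at 12 h (change 3.84 ± 0.65, adjusted p = 0.0021, control shift 1.01). Ifi27l2b, of a family of interferon-inducible genes, became a late rise by another path. It gave 9364, 11684 and 9371 on the control arrays and 8012, 8199 and 8234 on the EGF arrays at 4 h and 496, 472 and 255 on the control arrays and 4142, 4487 and 3385 on the EGF arrays at 12 h. Both groups were lower at 12 h, the controls far more, and the effects were -0.31 at 4 h and 3.26 at 12 h (change 3.57 ± 0.30, adjusted p = 1.28e-05, control shift -4.60). Calb1, a calcium-binding protein, had effects of 0.08 at 4 h and 3.63 at 12 h (change 3.55 ± 0.94, adjusted p = 0.0268, control shift 0.14), and Car2, a carbonic anhydrase, of -0.11 at 4 h and 3.23 at 12 h (change 3.34 ± 0.84, adjusted p = 0.0212, control shift 0.72). With an offset of 1 the adjusted p of Calb1 was 0.0888 and that of Car2 0.0683. Leaving out 1 array raised it to as much as 0.0669 for Calb1 and 0.0573 for Car2.

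Cd68, a lysosomal glycoprotein used as a marker of microglia and macrophages, was also a late rise. Its signals were 51.6, 44.4 and 45.7 on the control arrays and 40.7, 142 and 34.5 on the EGF arrays at 4 h and 133, 39.8 and 13.8 on the control arrays and 1055, 841 and 877 on the EGF arrays at 12 h. Every EGF array of 12 h was at 841 or above, and all others were at 141.9 or below. The effects were 0.27 at 4 h and 3.70 at 12 h (change 3.43 ± 0.81, adjusted p = 0.0158, control shift 0.02). The 7 microglial markers summed to 988.7 to 1195.5 on the 4 h controls, 737.1 to 913.4 with EGF at 4 h, 698.6 to 1040.4 on the 12 h controls and 1469.6 to 2105.6 with EGF at 12 h. This sum includes Cd68 itself, whose mean was 924.1 with EGF at 12 h and 72.4 or below in the other groups. The higher sum is therefore not separate from the rise of Cd68. Apart from Cd68, the tested markers Aif1 and Csf1r had changes of 0.36 and 0.32 with adjusted p of 0.703 and 0.761. The microglial surface markers Itgam and Ptprc were too dim to test, with EGF means at 12 h of 19.0 and 21.4.

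Among the 5 late falls with the largest change, all had a called rise of the controls. Rapgef5, an activator of Rap GTPases, gave 364, 358 and 495 on the control arrays and 289, 378 and 413 on the EGF arrays at 4 h and 7639, 8046 and 9769.9 on the control arrays and 231, 111 and 164 on the EGF arrays at 12 h. The controls were far higher at 12 h and the EGF arrays were not. The effects were -0.16 at 4 h and -5.50 at 12 h (change -5.34 ± 0.35, adjusted p = 2.39e-06, control shift 4.31). Gjb6, the astrocyte connexin 30, gave 24.1, 13.3 and 13.4 on the control arrays and 11.2, 58.0 and 138 on the EGF arrays at 4 h and 930.5, 1082 and 1354 on the control arrays and 14.1, 118 and 3.9 on the EGF arrays at 12 h, so it was well above the bottom of the scale only on the 12 h controls. Its effects were 0.93 at 4 h and -4.40 at 12 h (change -5.33 ± 0.98, adjusted p = 0.00392, control shift 4.79). Aldoc, the aldolase typical of astrocytes, had effects of -0.71 at 4 h and -5.64 at 12 h (change -4.93 ± 0.91, adjusted p = 0.00401, control shift 4.18), with 12 h control signals of 2234, 2811 and 2921 against 19.9, 52.8 and 20.3 with EGF. Onecut2, a transcription factor, had effects of 1.15 at 4 h and -3.11 at 12 h (change -4.25 ± 0.68, adjusted p = 0.00149, control shift 4.88), and Dmrtc1a of -0.50 at 4 h and -4.51 at 12 h (change -4.01 ± 0.43, adjusted p = 8.85e-05, control shift 1.01). With the array set as a block Onecut2 would count as a reversed rise. Its other tested probe set gave a change of -1.50 with an adjusted p of 0.176.

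Growing rises included membrane and growth cone genes. Emb, an immunoglobulin-family partner of lactate transporters, gave 648, 699.8 and 829 on the control arrays and 1135, 1192 and 989.7 on the EGF arrays at 4 h and 284, 266 and 170.4 on the control arrays and 5299.7, 6259.5 and 6673 on the EGF arrays at 12 h. EGF and control arrays did not overlap at either time, and the gap grew from 1.51-fold to 23.4-fold. The effects were 0.59 at 4 h and 4.55 at 12 h (change 3.96 ± 0.28, adjusted p = 4.05e-06, control shift -1.53). Gap43, a growth cone protein of regenerating neurons that is also found in reactive astrocytes, gave 127, 159.7 and 50.7 on the control arrays and 174, 328 and 266 on the EGF arrays at 4 h and 268, 252 and 321 on the control arrays and 7070.3, 6714 and 9274 on the EGF arrays at 12 h. Its effects were 1.09 at 4 h and 4.65 at 12 h (change 3.56 ± 0.46, adjusted p = 0.000352, control shift 1.25). Cyp3a9, a cytochrome P450, had effects of 2.39 at 4 h and 5.47 at 12 h (change 3.08 ± 0.61, adjusted p = 0.00622, control shift -0.17), and Fxyd5, a regulator of the sodium pump, of 1.18 at 4 h and 4.25 at 12 h (change 3.07 ± 0.39, adjusted p = 0.00033, control shift -2.53).

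Growing falls held the gene with the smallest adjusted p for the change among those named here, Cldn11, which encodes a tight junction claudin of myelin and barrier cells. It gave 16587, 19291 and 19931 on the control arrays and 12332, 11981 and 13575 on the EGF arrays at 4 h and 47854, 45758 and 44080.1 on the control arrays and 1298, 1134 and 1007 on the EGF arrays at 12 h. The EGF arrays of 12 h were far below all other arrays while the controls rose. The effects were -0.56 at 4 h and -5.30 at 12 h (change -4.75 ± 0.18, adjusted p = 9.63e-09, control shift 1.31), and a second, dimmer probe set gave a change of -1.30 with an adjusted p of 0.053. Sult1a1, a sulfotransferase, gave 10184, 9914 and 11351 on the control arrays and 222, 232 and 252 on the EGF arrays at 12 h and had effects of -0.92 at 4 h and -5.34 at 12 h (change -4.42 ± 0.19, adjusted p = 2.76e-08, control shift 0.63). Angpt2, a ligand of the Tie2 receptor, had effects of -1.29 at 4 h and -4.90 at 12 h (change -3.61 ± 0.32, adjusted p = 2.06e-05, control shift -0.62), and Reps2, a protein of receptor endocytosis, of -0.74 at 4 h and -4.12 at 12 h (change -3.38 ± 0.26, adjusted p = 7.29e-06, control shift 2.85).

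Genes that rose at 4 h and fell at 12 h included secreted factors. Tmem100, a membrane protein induced by BMP signalling, gave 1748, 1409.9 and 2139.5 on the control arrays and 8800.4, 9556 and 9614 on the EGF arrays at 4 h and 3222, 3049 and 3853 on the control arrays and 1094, 1513 and 2205 on the EGF arrays at 12 h. EGF arrays lay above the controls at 4 h and below them at 12 h without overlap. The effects were 2.40 at 4 h and -1.11 at 12 h (change -3.52 ± 0.31, adjusted p = 2.06e-05, control shift 0.94). Metrnl, a secreted protein related to meteorin, gave 2304, 2440.4 and 2208 on the control arrays and 6259, 6392 and 6886 on the EGF arrays at 4 h and 5218, 4607 and 4552 on the control arrays and 1345, 1213 and 1189 on the EGF arrays at 12 h, with effects of 1.48 at 4 h and -1.92 at 12 h (change -3.40 ± 0.17, adjusted p = 1.67e-07, control shift 1.04). The chemokine gene Ccl7 had effects of 1.99 at 4 h and -1.34 at 12 h (change -3.33 ± 0.31, adjusted p = 2.85e-05, control shift -1.31). Fgf9, a glial fibroblast growth factor, had effects of 1.48 at 4 h and -1.26 at 12 h (change -2.73 ± 0.44, adjusted p = 0.00159, control shift 0.58), and Otulinl of 0.74 at 4 h and -1.97 at 12 h (change -2.71 ± 0.28, adjusted p = 6.9e-05, control shift 0.40).

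Genes that fell at 4 h and rose at 12 h included Fos, the AP-1 subunit best known as an immediate early gene. Its signals were 6096, 4592 and 7602 on the control arrays and 778, 785 and 764 on the EGF arrays at 4 h and 644, 570.1 and 444 on the control arrays and 782, 852 and 788 on the EGF arrays at 12 h. The EGF arrays stayed between 764 and 852 throughout, and only the controls differed, being high at 4 h. The effects were -2.91 at 4 h and 0.54 at 12 h (change 3.45 ± 0.28, adjusted p = 9.59e-06, control shift -3.39). The rise at 12 h had an adjusted p of 0.0442, and Fos counted as a transient fall with the replicate number as a block and with the offset at the 25th percentile. Ankrd1, a muscle and stress gene driven by YAP and SRF, Fibin, a secreted protein, and the BMP ligand Gdf6 also had controls that were high at 4 h. In Ankrd1 the EGF arrays came down as well, with a called shift of -0.69. Ankrd1 had effects of -1.93 at 4 h and 0.81 at 12 h (change 2.74 ± 0.28, adjusted p = 5.03e-05, control shift -3.43), Fibin of -1.58 at 4 h and 1.49 at 12 h (change 3.07 ± 0.25, adjusted p = 1.08e-05, control shift -2.72) and Gdf6 of -2.47 at 4 h and 2.21 at 12 h (change 4.68 ± 0.92, adjusted p = 0.00573, control shift -4.49). Gdf6 rests on a wide spread at 12 h, where the EGF arrays gave 171, 73.8 and 1002 and the highest was replicate 3. With 1 array set at each time, which leaves that array out, Gdf6 counted as a transient fall. Syne1, the nuclear envelope protein nesprin-1, differed from these. It gave 933, 889 and 821 on the control arrays and 597, 527 and 604 on the EGF arrays at 4 h and 819, 831 and 704 on the control arrays and 4922, 5172 and 4349.9 on the EGF arrays at 12 h, so its controls hardly moved, and the effects were -0.59 at 4 h and 2.58 at 12 h (change 3.17 ± 0.21, adjusted p = 2.39e-06, control shift -0.16).

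The sustained genes named by the rule were chosen among those with the interval of the change within 1 log2 unit of 0. In the whole class 19 rises and 11 falls had an estimated change of at least 1 log2 unit that was not called. Dok5, an adaptor of receptor tyrosine kinases, gave 267, 324 and 374 on the control arrays and 7374, 8338 and 7689.6 on the EGF arrays at 4 h and 594, 435 and 830.3 on the control arrays and 16178, 16325 and 10997 on the EGF arrays at 12 h. Both groups were higher at 12 h, and the effects were 4.51 at 4 h and 4.52 at 12 h (change 0.01 ± 0.31, adjusted p = 0.99, control shift 0.86). A second, dimmer probe set of Dok5 gave a change of -1.03 with an adjusted p of 0.474, so the size differs between its probe sets. Pkp1, a desmosomal plakophilin, had effects of 4.39 at 4 h and 4.62 at 12 h (change 0.23 ± 0.24, adjusted p = 0.594, control shift -0.29), and Tnfaip8l3 of 3.96 at 4 h and 3.79 at 12 h (change -0.18 ± 0.21, adjusted p = 0.644, control shift 0.01). Among sustained falls, Gadd45b, a stress and growth arrest gene, gave 6303, 6669.5 and 5379 on the control arrays and 1144, 1319.8 and 1197 on the EGF arrays at 4 h and 3132, 2624 and 2524 on the control arrays and 649, 538 and 541 on the EGF arrays at 12 h. It had effects of -2.30 at 4 h and -2.21 at 12 h (change 0.09 ± 0.21, adjusted p = 0.837, control shift -1.14), both arms being lower at 12 h. Mn1, a transcriptional coregulator, had effects of -2.64 at 4 h and -2.59 at 12 h (change 0.05 ± 0.44, adjusted p = 0.957, control shift 1.27), and Trim34 of -2.34 at 4 h and -2.14 at 12 h (change 0.20 ± 0.33, adjusted p = 0.739, control shift -0.01).

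Genes were then described by the lists of pathways and functions, in the order of their roles. The 14.0% of all genes whose effect changed served as the background, except where stated.

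**Figure D4:**
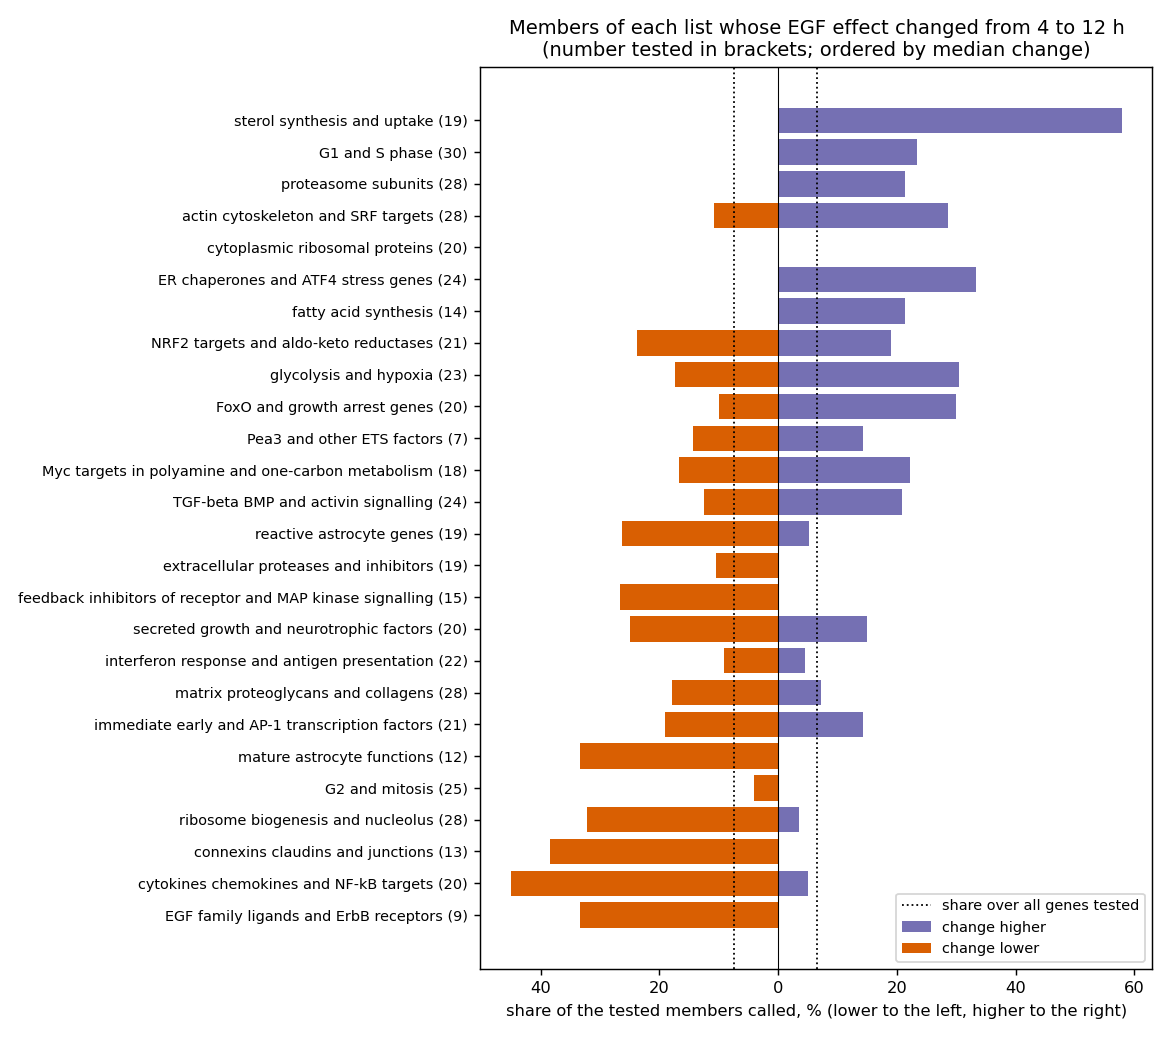
Share of the tested members of each list (number in brackets) whose EGF effect was called higher at 12 h (right) or lower (left), in percent, ordered by median change; dotted lines mark the shares over all genes, 6.55% higher and 7.45% lower. Sterol genes reached 57.9% called, all higher, while of 20 cytokine genes 10 were called, 9 of them lower.

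Of 9 tested EGF family ligands and ErbB receptors, 3 changed (33.3%), all lower at 12 h, with a median change of -0.79. The ligand gene Tgfa was called higher without EGF replicate 3 at 12 h, with a change of 1.49. The fit with the array set as a block gives the same change, since it takes out the same array. Tgfa was also called higher with the replicate number as a block, and with 1 array set at each time, where that array is left out too. Egfr, the receptor itself, gave 5095, 5674 and 5967 on the control arrays and 8939, 8075 and 7317 on the EGF arrays at 4 h and 8412, 8278 and 7295 on the control arrays and 6572, 5073 and 5293 on the EGF arrays at 12 h. The EGF arrays lay above the controls at 4 h and below them at 12 h without overlap, by small amounts. Its effects were 0.54 at 4 h and -0.51 at 12 h (change -1.04 ± 0.19, adjusted p = 0.00375, control shift 0.52), and a second probe set gave a change of -1.20 with an adjusted p of 0.082. The ligand gene Ereg, which encodes epiregulin, had effects of 2.06 at 4 h and 0.37 at 12 h (change -1.69 ± 0.41, adjusted p = 0.0173, control shift -0.97), and Nrg1, which encodes neuregulin, of 0.83 at 4 h and -0.45 at 12 h (change -1.28 ± 0.33, adjusted p = 0.0245, control shift -0.76). No change was called for 2 other ligand genes with large effects. Areg, which encodes amphiregulin, had effects of 6.63 at 4 h and 5.84 at 12 h (change -0.79 ± 0.33, adjusted p = 0.142, control shift -1.15), and Hbegf of 2.88 at 4 h and 3.26 at 12 h (change 0.37 ± 0.78, adjusted p = 0.805, control shift -2.70).

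Of 15 feedback inhibitors of the receptor and MAP kinases, 4 changed (26.7%), all lower, around a median of -0.11. Errfi1, which blocks the EGFR kinase domain, gave 776, 749 and 808 on the control arrays and 8364, 9600.2 and 8820.4 on the EGF arrays at 4 h and 989, 1058 and 794 on the control arrays and 2969.5, 2753 and 1684 on the EGF arrays at 12 h. The EGF arrays stayed above the controls but came down at 12 h, with effects of 3.48 at 4 h and 1.33 at 12 h (change -2.15 ± 0.28, adjusted p = 0.000351, control shift 0.27). Spry2, a Sprouty inhibitor of ERK signalling, had effects of 2.69 at 4 h and 1.56 at 12 h (change -1.13 ± 0.28, adjusted p = 0.0204, control shift -0.29), and the ERK phosphatase gene Dusp7 of 2.55 at 4 h and 1.67 at 12 h (change -0.88 ± 0.23, adjusted p = 0.0248, control shift 0.00). Lrig3, a membrane regulator of growth factor receptors, was a growing fall through its controls, with effects of -0.75 at 4 h and -1.71 at 12 h (change -0.96 ± 0.21, adjusted p = 0.0101, control shift 0.99). Dusp6, the phosphatase most specific for ERK, was sustained at 3.61 at 4 h and 3.50 at 12 h (change -0.11 ± 0.27, adjusted p = 0.832, control shift -0.10). Without control replicate 1 at 4 h only 2 of the 4 calls were made. Without EGF replicate 3 at 4 h or at 12 h, 1 gene of the list was called higher. With 1 array set at each time 1 was called higher, and with the array set as a block 2.

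Of 21 immediate early and AP-1 factors, 3 changed higher and 4 lower (33.3%). Fosl1, the Fos relative that follows ERK activity, had effects of 5.11 at 4 h and 3.51 at 12 h (change -1.60 ± 0.31, adjusted p = 0.00508, control shift 0.34), and Egr2 of 2.82 at 4 h and 1.18 at 12 h (change -1.64 ± 0.31, adjusted p = 0.00438, control shift -0.69). Myc had effects of 2.33 at 4 h and 1.33 at 12 h (change -1.0 ± 0.22, adjusted p = 0.0117, control shift -1.18). Klf10, a TGF-beta early gene, had effects of 1.88 at 4 h and 0.34 at 12 h (change -1.54 ± 0.24, adjusted p = 0.00123, control shift 0.80) and would count as attenuated with the array set as a block. Egr1 and Klf6 went the other way, with changes of 0.73 ± 0.18 (SE, adjusted p = 0.0186) and 0.93 ± 0.18 (SE, adjusted p = 0.00514) and control shifts of -1.11 and -0.30. Of 7 ETS factors, Etv1 changed higher, with effects of -1.25 at 4 h and 0.44 at 12 h (change 1.70 ± 0.28, adjusted p = 0.00197, control shift 0.84), and Ets2 lower, with effects of 1.01 at 4 h and -0.01 at 12 h (change -1.02 ± 0.23, adjusted p = 0.0129, control shift 0.46). Etv5, a Pea3 factor and ERK target, had effects of 0.87 at 4 h and 1.01 at 12 h (change 0.14 ± 0.20, adjusted p = 0.702, control shift 0.31). Without EGF replicate 1 at 12 h 2 ETS factors were called higher.

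Of 20 FoxO and growth arrest genes, 6 changed higher and 2 lower, with a median change of 0.33 and median effects of -1.21 at 4 h and -0.81 at 12 h. Ccng2, an unusual cyclin linked to cell cycle exit, gave 4882, 4693 and 5925 on the control arrays and 527, 516 and 571 on the EGF arrays at 4 h and 12965, 11359 and 12751 on the control arrays and 4914, 4737 and 3884 on the EGF arrays at 12 h. EGF arrays were below the controls at both times, less so at 12 h, with effects of -3.20 at 4 h and -1.45 at 12 h (change 1.75 ± 0.20, adjusted p = 0.000121, control shift 1.26). Sesn3, a stress-inducible regulator of mTOR, reversed from a fall to a rise, with effects of -1.22 at 4 h and 1.19 at 12 h (change 2.40 ± 0.38, adjusted p = 0.0014, control shift -0.36). Foxo4 had effects of -1.13 at 4 h and 0.07 at 12 h (change 1.2 ± 0.32, adjusted p = 0.0257, control shift -0.76). Cdkn1b, the CDK inhibitor p27, had effects of -1.38 at 4 h and -0.72 at 12 h (change 0.66 ± 0.18, adjusted p = 0.0308, control shift -0.21). Foxo1 was not among the changed genes, at -1.19 at 4 h and -1.97 at 12 h (change -0.78 ± 0.44, adjusted p = 0.287, control shift 0.98).

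Of 28 genes of ribosome biogenesis, 9 changed lower and 1 higher (35.7%), with a median change of -0.55. At 4 h EGF raised 27 of the 28, and at 12 h 17. Polr1b, a subunit of RNA polymerase I, gave 901, 806 and 710.5 on the control arrays and 3584, 3153 and 2129 on the EGF arrays at 4 h and 1399, 1172 and 930.4 on the control arrays and 1290.1, 1027 and 1117 on the EGF arrays at 12 h. The groups were apart at 4 h and overlapped at 12 h, with effects of 1.82 at 4 h and -0.01 at 12 h (change -1.83 ± 0.30, adjusted p = 0.00181, control shift 0.51). Wdr43, a small-subunit processome protein, had effects of 1.62 at 4 h and 0.44 at 12 h (change -1.18 ± 0.19, adjusted p = 0.00184, control shift 0.16), and Nop56, a core protein of box C/D particles, of 1.85 at 4 h and 1.10 at 12 h (change -0.74 ± 0.22, adjusted p = 0.0458, control shift -0.07). Nhp2 was the exception, with effects of 0.45 at 4 h and 1.71 at 12 h (change 1.27 ± 0.29, adjusted p = 0.0136, control shift -0.58). The number called lower was 15 with the array set as a block and 5 to 11 when 1 array was left out. It was over 1.5 times smaller without EGF replicate 1, control replicate 1 or control replicate 3 at 4 h, or control replicate 2 or 3 at 12 h.

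Of 18 Myc-associated genes of polyamine and one-carbon metabolism, 4 changed higher and 3 lower (38.9%). The lower ones were polyamine genes. Odc1, the first enzyme of the pathway, had effects of 1.90 at 4 h and 1.02 at 12 h (change -0.88 ± 0.21, adjusted p = 0.016, control shift 0.09), Amd1 of 1.36 at 4 h and 0.60 at 12 h (change -0.76 ± 0.22, adjusted p = 0.0394, control shift 0.66) and Azin1, an activator of the pathway, of 1.72 at 4 h and 0.60 at 12 h (change -1.11 ± 0.21, adjusted p = 0.00437, control shift 0.28). A second probe set of Azin1 gave a change of 0.04 with an adjusted p of 0.954, and the mean of its probe sets gave -0.54 with an adjusted p of 0.11. The higher ones serve serine and one-carbon metabolism. Mthfd2, a mitochondrial folate enzyme, gave 1165, 781 and 912 on the control arrays and 1395, 1279 and 1021 on the EGF arrays at 4 h and 491, 278 and 331 on the control arrays and 1892, 1887 and 1353 on the EGF arrays at 12 h, with effects of 0.37 at 4 h and 2.17 at 12 h (change 1.80 ± 0.34, adjusted p = 0.00437, control shift -1.34). Psat1, Psph and Shmt2 had changes of 1.11 ± 0.25 (SE, adjusted p = 0.011), 1.05 ± 0.24 (SE, adjusted p = 0.0117) and 0.99 ± 0.25 (SE, adjusted p = 0.0195), with control shifts of -1.12, -0.64 and -0.73.

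Of 30 G1 and S phase genes, 7 changed (23.3%), all higher, with a median change of 0.60 and median effects of -0.46 at 4 h and 0.20 at 12 h. Mcm6, a subunit of the replicative helicase, gave 995, 1076 and 1151 on the control arrays and 888, 788 and 844 on the EGF arrays at 4 h and 1589, 1742 and 1692 on the control arrays and 3386, 4140.4 and 2718 on the EGF arrays at 12 h. EGF arrays lay below the controls at 4 h, where the effect was not called, and above them at 12 h, with effects of -0.35 at 4 h and 1.00 at 12 h (change 1.34 ± 0.23, adjusted p = 0.00243, control shift 0.63). Mcm3 had effects of -1.04 at 4 h and 0.49 at 12 h (change 1.52 ± 0.29, adjusted p = 0.00437, control shift 0.28). Cdt1, which loads the helicase, had effects of -0.40 at 4 h and 1.54 at 12 h (change 1.94 ± 0.38, adjusted p = 0.00581, control shift 0.43), and Ccnd1, which encodes cyclin D1, of 0.07 at 4 h and 1.18 at 12 h (change 1.12 ± 0.27, adjusted p = 0.0181, control shift -1.41). Without control replicate 1 at 12 h 4 of these genes were called, and with the array set as a block 11. Of 25 G2 and mitosis genes, Nusap1, a spindle protein, alone changed (4.0%, below the background), with effects of -0.56 at 4 h and -1.97 at 12 h (change -1.40 ± 0.29, adjusted p = 0.00731, control shift 0.67). EGF lowered 8 of the 25 at 4 h and 18 at 12 h. Without any 1 of the EGF arrays of 12 h 2 were called lower. Mki67, the proliferation marker, had effects of -1.03 at 4 h and -1.26 at 12 h (change -0.23 ± 0.40, adjusted p = 0.765, control shift 1.15), and the checkpoint gene Mad2l1, not called, of -0.43 at 4 h and 0.54 at 12 h (change 0.97 ± 0.33, adjusted p = 0.076, control shift -0.77). Mad2l1 was called higher without EGF replicate 3 at 12 h, with a change of 1.14. It was also called with the array set as a block, 1 array set at each time, array weights or no intensity trend.

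**Figure D5:**
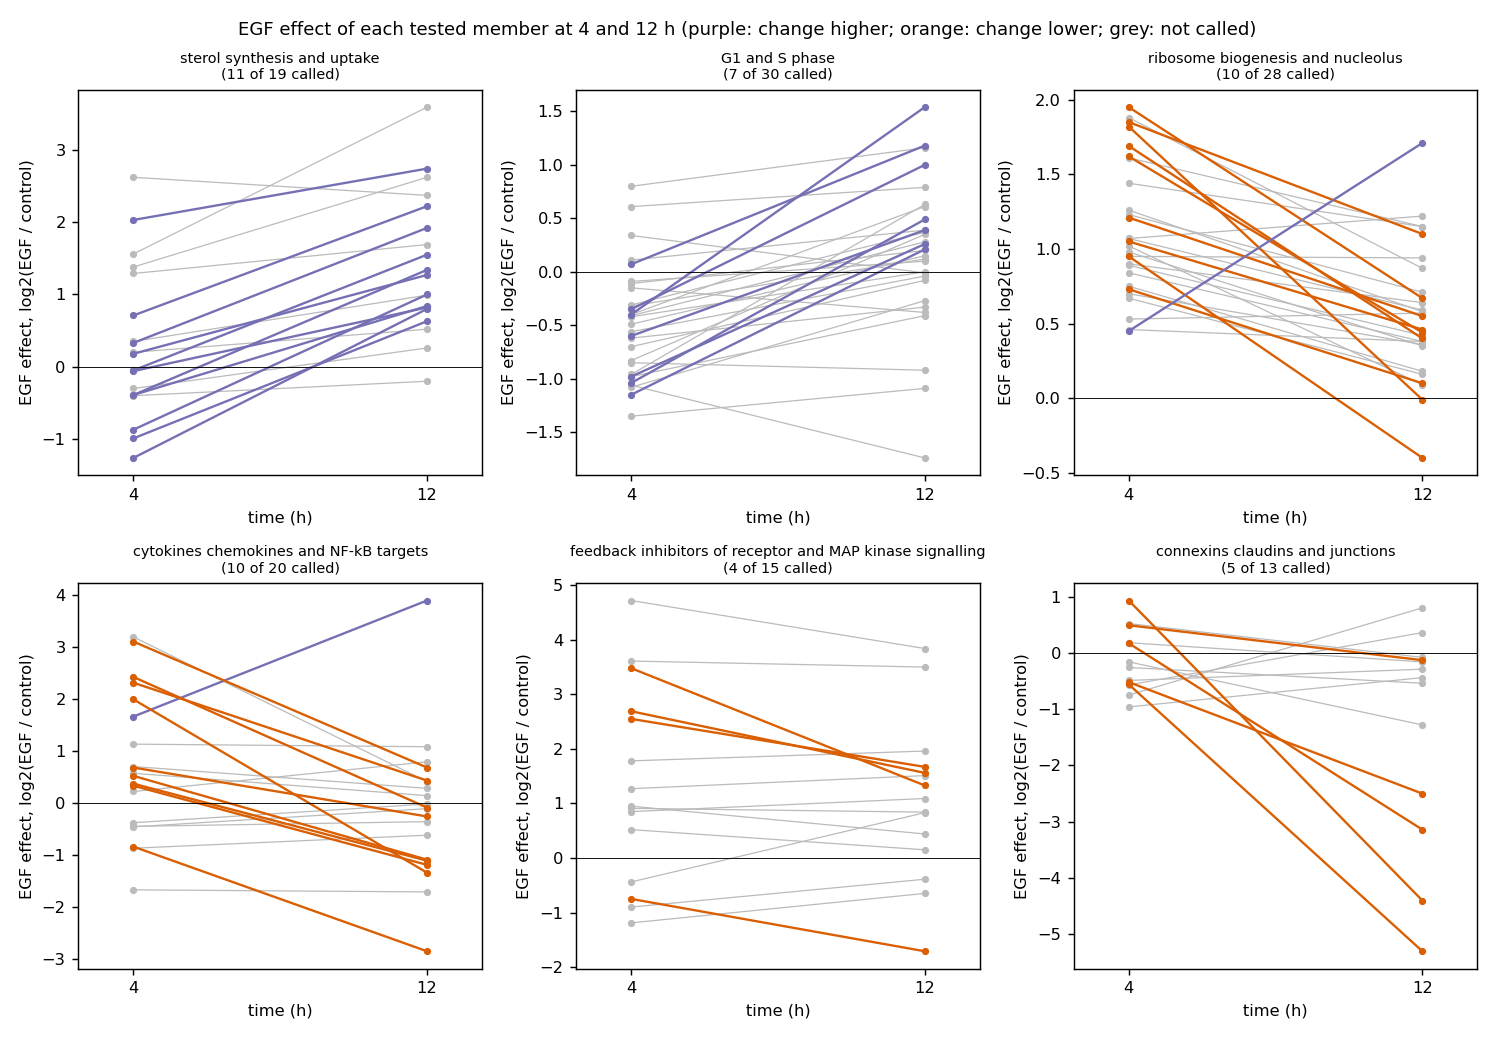
EGF effect at 4 and 12 h (log2 of EGF over control) of each tested member of 6 lists, joined by a line; purple members changed higher, orange members lower and grey members were not called. The 11 called sterol genes run upward, 9 of the 10 called ribosome biogenesis genes and 9 of the 10 called cytokine genes run downward.

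Of 19 genes of sterol synthesis and uptake, 11 changed (57.9%), all higher, with a median change of 1.23 against 0.04 over all genes. EGF raised 6 and lowered 3 of them at 4 h, and raised 14 at 12 h. Fdft1, the squalene synthase, gave 1350.2, 1790.4 and 1911 on the control arrays and 1209, 1034 and 1615 on the EGF arrays at 4 h and 1724, 1767 and 1515 on the control arrays and 4272, 4138 and 4318 on the EGF arrays at 12 h. The groups overlapped at 4 h, and at 12 h the lowest EGF array was at 4138 and the highest control at 1767. Its effects were -0.39 at 4 h and 1.34 at 12 h (change 1.73 ± 0.25, adjusted p = 0.000846, control shift 0.00). Fdps, which makes farnesyl diphosphate, had effects of 0.71 at 4 h and 2.22 at 12 h (change 1.52 ± 0.20, adjusted p = 0.000378, control shift -1.06). Insig1, the sterol-sensing brake on SREBP, had effects of 0.33 at 4 h and 1.92 at 12 h (change 1.58 ± 0.26, adjusted p = 0.00182, control shift -0.37). Dhcr7, the last enzyme of cholesterol synthesis, reversed, with effects of -0.87 at 4 h and 1.00 at 12 h (change 1.88 ± 0.34, adjusted p = 0.00328, control shift 0.01), and Stard4, a sterol transfer protein, had effects of -1.26 at 4 h and 0.80 at 12 h (change 2.06 ± 0.60, adjusted p = 0.0418, control shift 0.21). The median control shift of the list was 0.00. The count was 8 to 12 when 1 array was left out and 15 with the array set as a block.

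Of 14 fatty acid synthesis genes, 3 changed higher (21.4%). Scd, the stearoyl-CoA desaturase, had effects of 0.19 at 4 h and 1.75 at 12 h (change 1.56 ± 0.37, adjusted p = 0.0154, control shift -0.94), and Fads1, a fatty acid desaturase, of -0.76 at 4 h and -0.09 at 12 h (change 0.68 ± 0.20, adjusted p = 0.0488, control shift 1.26). Acss2, which makes acetyl-CoA from acetate, had effects of -0.09 at 4 h and 0.97 at 12 h (change 1.06 ± 0.27, adjusted p = 0.0233, control shift 0.58), and its adjusted p was 0.0519 with the replicate number as a block and up to 0.0654 without 1 array. The count of 3 was between 1 and 5 when 1 array was left out. It moved by over 1.5 times without EGF replicate 2 or control replicate 3 at 4 h, or control replicate 1 or 2 or EGF replicate 2 or 3 at 12 h.

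Of 23 glycolysis and hypoxia genes, 7 changed higher and 4 lower (47.8%). The lower ones include Aldoc, which was bright enough to test only through the 12 h controls, so this share is not set against the background. Enzymes of the pathway were among the higher ones. Eno1, the main enolase, gave 21412, 21289.9 and 18906 on the control arrays and 30276, 31805 and 31073 on the EGF arrays at 4 h and 12547, 12029 and 11157 on the control arrays and 34419, 47396 and 54817 on the EGF arrays at 12 h. EGF arrays were above the controls at both times, and the controls were lower at 12 h, with effects of 0.60 at 4 h and 1.91 at 12 h (change 1.31 ± 0.21, adjusted p = 0.0016, control shift -0.78). Ldha, lactate dehydrogenase A, had effects of 0.94 at 4 h and 2.20 at 12 h (change 1.25 ± 0.20, adjusted p = 0.00173, control shift -0.90), and Tpi1, triosephosphate isomerase, of 0.71 at 4 h and 2.08 at 12 h (change 1.38 ± 0.35, adjusted p = 0.0233, control shift -1.26). Slc16a1, the lactate and pyruvate transporter MCT1, went the other way. It gave 2305, 2676 and 2297 on the control arrays and 6242, 5669.7 and 5195 on the EGF arrays at 4 h and 6483, 6505 and 6682 on the control arrays and 2779.9, 2510.1 and 3886 on the EGF arrays at 12 h, and reversed with effects of 1.22 at 4 h and -1.12 at 12 h (change -2.34 ± 0.22, adjusted p = 3.5e-05, control shift 1.43). The glucose transporter gene Slc2a1 had effects of 1.15 at 4 h and 0.41 at 12 h (change -0.74 ± 0.20, adjusted p = 0.0312, control shift -0.01). Leaving out 1 array gave 3 to 7 higher calls, over 1.5 times fewer without any array other than EGF or control replicate 3 at 4 h or EGF replicate 1 or 3 at 12 h.

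Of 21 NRF2 targets and aldo-keto reductases, 4 changed higher and 5 lower (42.9%). Hmox1, the heme oxygenase, gave 5975, 4928 and 4054 on the control arrays and 15451, 14116 and 11193 on the EGF arrays at 4 h and 4473, 4168 and 3816 on the control arrays and 2944, 3068 and 2942 on the EGF arrays at 12 h. EGF arrays lay above the controls at 4 h and below them at 12 h, with effects of 1.45 at 4 h and -0.47 at 12 h (change -1.92 ± 0.22, adjusted p = 0.000161, control shift -0.25). It counted as a transient rise with median centring. Srxn1 and Txnrd1, of the thiol redox system, had effects of 3.70 at 4 h and 2.09 at 12 h (change -1.61 ± 0.33, adjusted p = 0.00767, control shift -0.35) and of 1.86 at 4 h and 0.84 at 12 h (change -1.02 ± 0.18, adjusted p = 0.00252, control shift -0.37). Akr1b8, an aldo-keto reductase, grew, with effects of 3.61 at 4 h and 5.16 at 12 h (change 1.55 ± 0.24, adjusted p = 0.00104, control shift -1.11). Members of this enzyme family are similar in sequence, and signal shared between them cannot be separated here. Gstp1, a glutathione transferase, had effects of 0.31 at 4 h and 2.30 at 12 h (change 1.99 ± 0.31, adjusted p = 0.00132, control shift -2.18). The higher count was 2 to 6 when 1 array was left out, moving by over 1.5 times without EGF replicate 3 or control replicate 1 at 4 h, or control replicate 2 or 3 or EGF replicate 2 at 12 h.

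Of 24 ER chaperone and ATF4 stress genes, 8 changed (33.3%), all higher, with a median change of 0.47. The controls fell from 4 to 12 h for 11 of the 24. Trib3, a pseudokinase induced by ATF4, gave 2011, 1004 and 2104 on the control arrays and 919, 813 and 585 on the EGF arrays at 4 h and 522, 474 and 334 on the control arrays and 1776, 1531 and 735 on the EGF arrays at 12 h. EGF arrays were below the controls at 4 h and above them at 12 h, with effects of -1.07 at 4 h and 1.48 at 12 h (change 2.55 ± 0.49, adjusted p = 0.0051, control shift -1.84). It counted as a late rise with 1 array set at each time and with median centring. Chac1, an ATF4 target that degrades glutathione, had effects of -1.05 at 4 h and 0.12 at 12 h (change 1.18 ± 0.24, adjusted p = 0.00781, control shift -0.80). Atf4 itself had effects of 0.47 at 4 h and 1.65 at 12 h (change 1.18 ± 0.26, adjusted p = 0.0107, control shift -1.86) and Asns, the asparagine synthetase, of -0.34 at 4 h and 0.88 at 12 h (change 1.22 ± 0.27, adjusted p = 0.0111, control shift -1.86). Without EGF replicate 1 or control replicate 2 at 4 h the count fell by more than 1.5 times, the lowest being 5. With the array set as a block it was 13.

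Of 20 cytokines, chemokines and NF-kB targets, 9 changed lower and 1 higher, with a median change of -0.69. The lower count was 9 or 10 whichever array was left out. Ccl20, a chemokine that attracts lymphocytes, gave 1378, 1429 and 1973 on the control arrays and 8458, 7656 and 9506 on the EGF arrays at 4 h and 2917, 1724 and 2317 on the control arrays and 2352, 2017 and 2016 on the EGF arrays at 12 h. The groups were apart at 4 h and overlapped at 12 h, with effects of 2.42 at 4 h and -0.09 at 12 h (change -2.51 ± 0.28, adjusted p = 9.98e-05, control shift 0.52). Ccl2, the monocyte chemokine, had effects of 2.31 at 4 h and 0.43 at 12 h (change -1.87 ± 0.23, adjusted p = 0.000207, control shift -2.13). Tnfaip3, which encodes the NF-kB inhibitor A20, had effects of 3.10 at 4 h and 0.68 at 12 h (change -2.42 ± 0.28, adjusted p = 0.00016, control shift 0.63). The chemokine gene Cxcl12 was a growing fall, with effects of -0.84 at 4 h and -2.85 at 12 h (change -2.01 ± 0.25, adjusted p = 0.000232, control shift -1.50), and the adhesion gene Icam1 reversed, with effects of 0.37 at 4 h and -1.11 at 12 h (change -1.48 ± 0.18, adjusted p = 0.000202, control shift -0.21). Cxcl10, a chemokine of the interferon response, alone went up, with effects of 1.66 at 4 h and 3.89 at 12 h (change 2.22 ± 0.36, adjusted p = 0.00173, control shift 0.17).

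Of 22 genes of the interferon response and antigen presentation, 1 changed higher and 2 lower (13.6%), a share near the background. Irf1, an interferon regulatory factor, had effects of -1.73 at 4 h and -0.45 at 12 h (change 1.28 ± 0.24, adjusted p = 0.00432, control shift 0.38), and Ifit2, an antiviral protein, of -0.46 at 4 h and -1.97 at 12 h (change -1.51 ± 0.30, adjusted p = 0.00622, control shift -0.32). The lower count moved by over 1.5 times, between 1 and 4, without any single array except EGF replicate 1 at 12 h, and the higher count was 3 without EGF replicate 3 at 12 h.

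Of 12 tested genes of mature astrocyte functions, 4 changed, all lower, and the count was 4 whichever array was left out. Of these 4, Gjb6 and Aldoc were bright enough to test only through the 12 h controls, where they are high, so their entry and their fall were fixed together and the share is not set against the background. Slc4a4, the sodium bicarbonate cotransporter, gave 19384, 20139.7 and 19346 on the control arrays and 16859, 14357 and 14359 on the EGF arrays at 4 h and 27858, 29257 and 30381 on the control arrays and 7069, 5722 and 5607 on the EGF arrays at 12 h. EGF arrays were below the controls at both times, and further below at 12 h, with effects of -0.37 at 4 h and -2.25 at 12 h (change -1.88 ± 0.17, adjusted p = 2.37e-05, control shift 0.57). Glul, the glutamine synthetase of astrocytes, had effects of -0.17 at 4 h and -1.28 at 12 h (change -1.10 ± 0.22, adjusted p = 0.00586, control shift 0.13). Gjb6 and Aldoc, given above, were the others. Gja1 had effects of 0.18 at 4 h and -0.16 at 12 h (change -0.34 ± 0.23, adjusted p = 0.38, control shift 0.16).

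Of 19 reactive astrocyte genes, 1 changed higher, Gap43, and 5 lower (31.6%). The lower ones include Tgm1, which was bright enough to test only through EGF at 4 h, so this share is not set against the background. Tnc, the matrix glycoprotein tenascin C, gave 606, 544 and 656 on the control arrays and 2519, 2621 and 2624 on the EGF arrays at 4 h and 14682, 14601 and 15316 on the control arrays and 10493, 10788 and 9497 on the EGF arrays at 12 h. Both arms were higher at 12 h, the controls so much that EGF arrays went from above them to below them. The effects were 2.06 at 4 h and -0.54 at 12 h (change -2.60 ± 0.16, adjusted p = 1.86e-06, control shift 4.58). Ptgs2, the inducible cyclooxygenase, had effects of 4.46 at 4 h and 2.70 at 12 h (change -1.76 ± 0.32, adjusted p = 0.00334, control shift -0.78). Without EGF replicate 1 or 3 at 12 h up to 3 genes of this list were called higher. Nes, which encodes nestin, was sustained at 2.37 at 4 h and 2.36 at 12 h (change -0.01 ± 0.41, adjusted p = 0.988, control shift -0.22), and Cd44, the hyaluronan receptor, at 2.80 at 4 h and 3.26 at 12 h (change 0.46 ± 0.15, adjusted p = 0.0685, control shift -0.29).

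Of 19 extracellular proteases and inhibitors, 2 changed lower (10.5%, near the background): Serpinb2, given above, and Timp3. Timp3, a matrix-bound inhibitor of metalloproteinases, gave 27257, 27506 and 23507 on the control arrays and 29130.3, 31962 and 26341 on the EGF arrays at 4 h and 21392, 21499 and 21091 on the control arrays and 6286, 5014 and 4669 on the EGF arrays at 12 h. The groups overlapped at 4 h and stood apart at 12 h, with effects of 0.16 at 4 h and -2.01 at 12 h (change -2.17 ± 0.19, adjusted p = 1.68e-05, control shift -0.29). Of its other probe sets, 1 gave a change of -2.38, 1 of -2.07 and 1 of -0.06. Plaur, the urokinase receptor, had effects of 3.79 at 4 h and 3.88 at 12 h (change 0.08 ± 0.60, adjusted p = 0.946, control shift -2.63).

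Of 28 matrix proteoglycans and collagens, 2 changed higher and 5 lower. Dcn, which encodes decorin, gave 3846, 3768 and 4079 on the control arrays and 2641, 2552 and 3264 on the EGF arrays at 4 h and 29639, 22926 and 19745 on the control arrays and 3271, 2931 and 2488 on the EGF arrays at 12 h. The controls rose several-fold and the EGF arrays did not, with effects of -0.47 at 4 h and -3.03 at 12 h (change -2.56 ± 0.23, adjusted p = 2.28e-05, control shift 2.60). Fmod, the related proteoglycan fibromodulin, had effects of -0.46 at 4 h and -1.84 at 12 h (change -1.38 ± 0.20, adjusted p = 0.000696, control shift -0.57). The lower count was 3 to 6 when 1 array was left out, and over 1.5 times smaller without EGF or control replicate 1 or 2 at 4 h, or control replicate 2 or 3 at 12 h. Vcan, the chondroitin sulfate proteoglycan versican, grew, with effects of 2.76 at 4 h and 4.64 at 12 h (change 1.88 ± 0.28, adjusted p = 0.000876, control shift 0.06). Spp1, which encodes osteopontin, had effects of 0.82 at 4 h and 3.88 at 12 h (change 3.06 ± 0.67, adjusted p = 0.0107, control shift -5.80), and its group means were 26951, 47672, 470.0, 9767 on the 4 h controls, 4 h EGF, 12 h controls and 12 h EGF arrays. Of the 6 fibroblast markers, Dcn alone changed, and their summed signal was 144033 to 174314, 130193 to 138232, 107269 to 139148 and 55424 to 112368 in the same order of groups. The part of such cells in the matrix values was not tested.

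Of 28 actin cytoskeleton genes and SRF targets, 8 changed higher and 3 lower (39.3%), and the controls fell for 17 of them. Msn, which encodes moesin, gave 15697, 16429.8 and 16688 on the control arrays and 25616, 28958 and 25799.7 on the EGF arrays at 4 h and 6245, 7072 and 7445 on the control arrays and 29033, 41979 and 37311 on the EGF arrays at 12 h. EGF arrays lay above the controls at both times, with effects of 0.72 at 4 h and 2.37 at 12 h (change 1.65 ± 0.20, adjusted p = 0.000176, control shift -1.23). Capg, an actin-capping protein, had effects of 0.19 at 4 h and 1.89 at 12 h (change 1.70 ± 0.21, adjusted p = 0.000215, control shift -0.48), and Actn1, an actin cross-linker, of 0.58 at 4 h and 2.33 at 12 h (change 1.75 ± 0.22, adjusted p = 0.000253, control shift -1.85). The contractile genes Tagln and Myl9 went the other way, with changes of -1.56 ± 0.43 (SE, adjusted p = 0.0306) and -1.52 ± 0.22 (SE, adjusted p = 0.000639) and control shifts of -2.21 and -1.76.

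Of 24 genes of TGF-beta, BMP and activin signalling, 5 changed higher and 3 lower (33.3%). The higher ones included the BMP target genes Id1, Id2 and Id3, all falls at 4 h. Id2 gave 7980.2, 6748 and 10066 on the control arrays and 1806, 2516 and 2460.3 on the EGF arrays at 4 h and 6663, 5401 and 6383 on the control arrays and 8491, 7953 and 6635 on the EGF arrays at 12 h. The groups were apart at 4 h and overlapped at 12 h, with effects of -1.86 at 4 h and 0.32 at 12 h (change 2.18 ± 0.25, adjusted p = 0.000148, control shift -0.41). Id1 had effects of -1.18 at 4 h and -0.27 at 12 h (change 0.90 ± 0.26, adjusted p = 0.0425, control shift -1.68). Bambi, a decoy receptor, reversed, with effects of -1.07 at 4 h and 1.38 at 12 h (change 2.45 ± 0.33, adjusted p = 0.000425, control shift -2.35). Among the lower ones the receptor gene Tgfbr1 had effects of 1.35 at 4 h and 0.07 at 12 h (change -1.27 ± 0.19, adjusted p = 0.0011, control shift -0.05) and its mediator Smad3 of 1.40 at 4 h and 0.02 at 12 h (change -1.38 ± 0.19, adjusted p = 0.000506, control shift 0.03). Inhba, an activin subunit gene, was sustained at 3.45 at 4 h and 3.58 at 12 h (change 0.13 ± 0.26, adjusted p = 0.79, control shift -1.63).

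Of 20 secreted growth and neurotrophic factors, 3 changed higher and 5 lower. Igf1 had effects of -0.52 at 4 h and -2.96 at 12 h (change -2.44 ± 0.54, adjusted p = 0.0114, control shift -2.32). Bdnf, the brain-derived neurotrophic factor, had effects of -1.30 at 4 h and 1.53 at 12 h (change 2.83 ± 0.83, adjusted p = 0.0428, control shift 0.27), and neither effect alone was called. Bdnf was bright enough to test only through EGF at 12 h. Edn1, which encodes endothelin-1, had effects of -1.81 at 4 h and -0.22 at 12 h (change 1.60 ± 0.34, adjusted p = 0.00851, control shift -2.85). Angpt2, Fgf9 and Nppb, given above, were also among the lower ones. The higher count was 1 to 3 when 1 array was left out, and stayed at 3 or fell by no more than 1.5 times only without EGF replicate 2 or control replicate 3 at 4 h, control replicate 2 or EGF replicate 3 at 12 h.

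Of 13 connexins, claudins and junction genes, 5 changed (38.5%), all lower, with a median change of -0.60. They include Gjb6, which was bright enough to test only through the 12 h controls, so this share is not set against the background. Gjb2, connexin 26, gave 24783, 27142 and 25869.7 on the control arrays and 29733, 31122 and 26627 on the EGF arrays at 4 h and 49743, 53626 and 53489 on the control arrays and 6953, 6998 and 4196 on the EGF arrays at 12 h. The groups overlapped at 4 h, and at 12 h the EGF arrays were several-fold below all controls, with effects of 0.17 at 4 h and -3.14 at 12 h (change -3.31 ± 0.24, adjusted p = 4.39e-06, control shift 1.01). Cdh1, which encodes E-cadherin, had effects of -0.52 at 4 h and -2.50 at 12 h (change -1.97 ± 0.25, adjusted p = 0.000311, control shift 1.22), and Tjp1, the tight junction scaffold ZO-1, of 0.49 at 4 h and -0.13 at 12 h (change -0.62 ± 0.16, adjusted p = 0.0235, control shift 0.54).

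Of 28 proteasome subunit genes, 6 changed (21.4%), all higher. Psmd2, a scaffold of the regulatory particle, gave 13433, 14770.3 and 13048 on the control arrays and 12907, 14244 and 12756 on the EGF arrays at 4 h and 10113, 10893 and 10768 on the control arrays and 15302, 18268 and 19432 on the EGF arrays at 12 h. The groups overlapped at 4 h and stood apart at 12 h, with effects of -0.05 at 4 h and 0.73 at 12 h (change 0.78 ± 0.17, adjusted p = 0.00957, control shift -0.37). Psmd4, its ubiquitin receptor, had effects of -0.06 at 4 h and 0.92 at 12 h (change 0.98 ± 0.26, adjusted p = 0.0288, control shift -1.18), with an adjusted p of up to 0.0761 when 1 array was left out. EGF effects were called for 1 of the 28 at 4 h and for 21 at 12 h, all higher. The count of 6 was 1 to 13 when 1 array was left out, with 13 under the array set as a block. It moved by over 1.5 times without any array except EGF replicate 3 or control replicate 1 at 4 h or EGF replicate 3 at 12 h. Of 20 cytoplasmic ribosomal protein genes, limma called no change after adjustment, 7 had an unadjusted p under 0.05, all higher, and without EGF replicate 1 at 12 h 8 were called. Rpl4 had effects of -0.03 at 4 h and 0.82 at 12 h (change 0.84 ± 0.27, adjusted p = 0.0613, control shift -1.11), and the controls fell for 14 of the 20. With the array set as a block 2 of the 20 were called higher, and 1 with the replicate number as a block or 1 array set at each time. Rpl4 was called with either block, with quantile normalization, with array weights and under the filter at the 60th percentile.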

How the data were processed

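The authors deposited a linear signal intensity per probe set, computed by MAS5 per the submitters' processing notes, which name no version. The 12 arrays had a 2% trimmed mean of 1500.5 to 1500.6 and were not rescaled. Control probe sets (57) and 12433 with a mean signal under 215.8, the 40th percentile, were left out. The linear model, of group means of log2(signal + 24.4) with the 10th percentile as offset, came from limma (version 3.58.1, under R version 4.3.3), used every array and an intensity trend, and left 8 residual degrees of freedom; p-values were adjusted over the 18609 probe sets tested. A fold change on this scale understates the change of dim genes. For arrays, their number limits the precision. The fit was checked on simulated data.

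Of all probe sets, 20832 carried 1 gene symbol in the platform's annotation, 436 several and 9831 none, and 20764 of those with 1 matched the current gene table. A gene was represented by its brightest tested probe set. The rule named Egfr, from each class the genes with the largest change in each direction whose arrays did not overlap at the times called (5 for transient, late and reversed, 4 for attenuated and growing), 3 sustained rises and 3 falls with the largest smaller effect, and up to 2 tested members per list, taken by the lowest p of the change. It gave 95 genes. Other genes of the lists and of the promoter search were chosen for the text after their values were seen. The members, rule and 26 lists were chosen with earlier results of these data known.

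Array sets were told apart by time and by limits on their control probe sets. Alternatives were the offset, the filter, normalization, array weights, the replicate number or array set as a block, 1 array set at each time, each array left out, a threshold of 0.01 and the mean of a gene's probe sets. Promoters came from RefSeq (GRCr8), which held 71 of the 95 genes. Figures were drawn with matplotlib 3.10.9.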

Additional observations from a re-analysis of the deposited data

Results flagged for a closer look

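The interaction test itself found a difference between the EGF effects of 4 and 12 h for 1436 genes, of which 100 were called at both times in opposite directions. Among the named genes, those that rose and then fell had changes of -3.52 for Tmem100, -3.40 for Metrnl, -3.33 for Ccl7, -2.73 for Fgf9, -2.71 for Otulinl, -2.60 for Tnc, -2.34 for Slc16a1, -1.92 for Hmox1 and -1.04 for Egfr. Those that fell and then rose had changes of 4.68 for Gdf6, 3.45 for Fos, 3.17 for Syne1, 3.07 for Fibin, 2.74 for Ankrd1, 2.55 for Trib3 and 2.45 for Bambi. The reversal was not called for Fos with the replicate number as a block, for Gdf6 or Trib3 with 1 array set at each time, or for Hmox1 or Trib3 with median centring. Of the 153 reversed probe sets, 101 kept that class with median centring and 124 with quantile normalization. With the array set as a block 145 did. With 3 arrays a group, no test for a single outlying value was applied gene by gene.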

How the results depend on the processing

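The named genes with a called change kept its direction under the alternatives in which they were tested, which was all 86 of them except under the filter at the 60th percentile, where 71 of the 86 were tested. With the array set as a block, all 86 stayed called, at 0.765 to 1.21 times the change from all arrays, and 9 moved to another class. These changes equal those without EGF replicate 3 at 12 h, which is alone in its set. Counts of probe sets below are to be read against 1015 higher and 1138 lower changes, effects called for 5187 at 4 h and 6734 at 12 h, shifts called for 8457 between controls and 7484 between EGF groups, and 522 transient, 158 attenuated, 936 late, 337 growing, 153 reversed and 2505 sustained responses. The array set as a block gave 2168 higher and 1924 lower changes, 8063 effects at 4 h, 1063 transient, 400 attenuated, 770 growing and 382 reversed. The share of calls that were higher was 47.1% with all arrays and 53.0% with this block. With 1 array set at each time there were 1790 higher and 1750 lower changes, 865 transient, 375 attenuated, 550 growing and 297 reversed. Array weights, under which EGF replicate 3 at 12 h had a weight of 0.14, gave 2631 higher and 2494 lower changes, 8408 effects at 4 h, 1286 transient, 456 attenuated, 1874 late, 881 growing and 486 reversed. At a threshold of 0.01 there were 371 higher and 474 lower changes, 3105 effects at 4 h and 4405 at 12 h, 5380 control and 4729 EGF shifts, 184 transient, 49 attenuated, 415 late, 122 growing, 56 reversed and 1532 sustained. Apart from the threshold, which lowers counts by construction, the cause was not tested.

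Leaving out each array in turn gave 647 to 1501 higher and 757 to 1489 lower changes, 3864 to 6880 effects at 4 h and 5336 to 7246 at 12 h, and 6695 to 9867 control and 5781 to 9573 EGF shifts. The classes ran from 322 to 796 for transient, 91 to 265 for attenuated, 610 to 1381 for late, 195 to 553 for growing, 93 to 231 for reversed and 2045 to 2901 for sustained. Higher changes fell by more than 1.5 times without EGF replicate 2 (668) or control replicate 2 (647) at 4 h, or without control replicate 1 at 12 h (666, with 757 lower and 610 late). Of the 4 h arrays, EGF replicate 1 and 2 and control replicate 1 and 2 each lowered transient (to 339, 322, 341 and 323) and growing counts (to 204, 195, 212 and 204) by more than 1.5 times. Attenuated counts fell likewise without EGF replicate 2 (103) or control replicate 2 (105) at 4 h or control replicate 1, 2 or 3 at 12 h (95, 91 and 97), and reversed counts without EGF replicate 2 (93) or control replicate 1 (101) at 4 h. Without EGF replicate 3 at 12 h the counts were 796 transient, 265 attenuated, 553 growing and 231 reversed.

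Same-numbered EGF and control arrays correlated in their deviations from the group means at 0.123, 0.149 and 0.378 at 4 h and at 0.0821, -0.11 and -0.104 at 12 h, so the numbers were not taken as pairs. With the replicate number as a block there were 960 higher and 1084 lower changes, and 84 of the 86 named calls were made; Acss2 (adjusted p = 0.0519) and Fam84b (0.0547) were not. In the simulated data, with 3 arrays a group and 200 of 18609 probe sets changed, most changes of 1 log2 unit were not called.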
